A study of Mus musculus with 14 samples.

Results

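The angiogenin ribonuclease family was followed in whole olfactory epithelium from 14 mice at P5, in 2 RNA-seq experiments. The family was taken as the genes Ang, Ang2, Ang4, Ang5, Ang6 and Rnase4, looked up by symbol, and all 6 were found among the 51211 gene symbols of both tables. Ang4 and Ang5 were picked because their values were high only in the PEA-exposed columns, and the other 4 genes serve as comparison. The PEA values of the members, and the Kir2.1 values of Ang4 and Ang5, are therefore a description here and are given with no test. In the PEA experiment, 4 wild type pups were exposed continuously from P0 to P5 to 2-phenylethylamine (PEA), a predator-associated amine odor, and 4 wild type pups had no PEA exposure. In the Kir2.1 experiment, 3 pups that carried OMP-IRES-tTA together with tetO-Kir2.1-IRES-tauLacZ were compared with 3 OMP-IRES-tTA het control pups. Here the transactivator is made from the Omp locus, so that mature olfactory sensory neurons (OSNs) express the Kir2.1 potassium channel and are silenced. The sample titles call the pups with both alleles Kir2.1-Off, the study's name for mice fed doxycycline after weaning to stop the transgene. The study's methods call the P5 pups Kir2.1, and that name is used here. The sample records name C57BL/6 as strain background for all 14 mice, whereas the methods of the study name CD-1 pups for PEA exposure. Every library came from 1 pup. Controls of the Kir2.1 experiment were littermates according to the study's methods, but which pups shared a litter is not stated. For the exposed and unexposed pups the litters are not stated. The methods describe early exposure from an odor vial in the home cage, which held the mother and her pups. Exposure was thus given by cage and the number of cages is not stated, so cage or litter cannot be told apart from exposure. Markers of the tissue were present in all mice, with 6 genes of mature OSNs summing to at least 24539 normalized counts and 3 genes of sustentacular cells, the supporting cells of the epithelium, to at least 20117.

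Angiogenins are small secreted ribonucleases of the RNase A superfamily. They enter cells, cut tRNAs in the anticodon loop under stress, promote ribosomal RNA synthesis and can induce blood vessel growth, and the cytosolic inhibitor Rnh1 blocks them. Mice carry several angiogenin genes, of which Ang4 is known as an antimicrobial protein of intestinal Paneth and goblet cells. Rnase4, a related secreted ribonuclease that cuts next to uridine, lies over Ang and shares its promoter.

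All members lie on chromosome 14 (GRCm38, GENCODE vM21 annotation) and are annotated as protein coding. Ang5 (ENSMUSG00000053961.7, 43957069 to 43963072, plus strand) and Ang6 (ENSMUSG00000072598.3, 44001826 to 44002269, minus strand) form 1 cluster and lie 42 kb apart. The other cluster holds Rnase4 (ENSMUSG00000021876.15, 51091077 to 51106151, plus strand), Ang (ENSMUSG00000072115.11, 51091150 to 51102009, plus strand), Ang2 (ENSMUSG00000047894.2, 51195324 to 51199148, minus strand) and Ang4 (ENSMUSG00000060615.5, 51763878 to 51773590, minus strand). Thus the pair that was high after PEA exposure is split between the clusters, 7.81 Mb apart, and each of the pair has a neighbor of the same family that was not high. RefSeq promoter sequences on GRCm38.p6 were found for 5 of the 6 members, Ang2 being the exception. The bases before the start sites of Ang5 and Ang4 are given here because these genes were high together, with those that Ang and Rnase4 share for contrast. Capitals mark the longest run of bases common to the Ang4 and Ang5 promoters.
Ang5, chr14:43956819-43957068, plus strand: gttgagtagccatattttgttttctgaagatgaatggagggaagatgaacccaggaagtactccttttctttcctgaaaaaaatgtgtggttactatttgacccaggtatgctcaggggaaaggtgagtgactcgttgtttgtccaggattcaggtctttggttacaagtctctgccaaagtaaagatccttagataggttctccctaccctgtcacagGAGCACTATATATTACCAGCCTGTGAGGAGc
Ang4, chr14:51773591-51773840, minus strand: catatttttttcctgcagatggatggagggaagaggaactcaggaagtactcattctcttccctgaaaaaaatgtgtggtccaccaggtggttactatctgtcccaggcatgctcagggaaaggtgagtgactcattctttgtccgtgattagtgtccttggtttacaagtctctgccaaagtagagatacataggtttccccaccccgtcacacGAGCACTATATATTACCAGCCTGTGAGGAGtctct
Ang and Rnase4, chr14:51090827-51091076, plus strand: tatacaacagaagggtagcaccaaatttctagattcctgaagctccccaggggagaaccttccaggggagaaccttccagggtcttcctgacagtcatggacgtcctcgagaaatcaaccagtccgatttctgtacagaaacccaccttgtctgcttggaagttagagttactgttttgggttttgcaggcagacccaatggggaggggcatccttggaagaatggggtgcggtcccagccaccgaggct

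The common run is 30 bases long and lies from 31 to 2 bases before the start site of Ang5 and from 35 to 6 bases before that of Ang4. Among 32817 RefSeq promoters of 300 bases (250 before and 50 after the start site), those of Ang4, Ang5 and Ang6 were the only ones that held it on either strand. Over their whole length the Ang4 and Ang5 promoters were 80.1% identical, with 254 identical bases in 317 aligned columns. The Ang6 promoter (chr14:44006369-44006668, minus strand) was identical to that of Ang5 in all 300 bases. It lies upstream of the Ang6 gene model of GENCODE. The letters TATATA, a palindrome within the run, occurred 25 bases before the start site of Ang5 and 29 bases before that of Ang4, and were present in 5.67% of all promoters. No member promoter held TATAAA, which could overlap TATATA and was found on either strand in 13.6% of promoters. The promoter shared by Ang and Rnase4 held CCAAT (37.4% of all promoters, either strand) and GGGCGG (35.6%), which were absent from the promoters of Ang4, Ang5 and Ang6. A second Rnase4 promoter (chr14:51095750-51096049) held TATATA 90 bases before its start site, and its longest run in common with the Ang5 promoter was 12 bases.

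Ang5 was at or near 0 in control mice and among the most abundant transcripts in PEA-exposed mice. Its normalized counts were 1.24, 0, 6.02 and 0 in PEA controls 1 to 4, and 3559, 4885, 4412 and 5582 in PEA-exposed mice 1 to 4. Every exposed mouse was far above every control mouse, and the exposed mice differed among themselves by less than a factor of 2. The mean difference was 11.16 on the log2(normalized count + 1) scale (SE 0.53, n = 4 per group). Because the control mice are near 0, this size depends on the value that is added before taking log2, and it was 9.47 when 5 was added in place of 1.

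Ang4 behaved alike at a lower level. It had normalized counts of 0.927, 2.66, 2.03 and 1.61 in the PEA control mice, and 915, 951, 1148 and 1556 in the PEA-exposed mice. Again the groups did not overlap, and mouse 4 was the highest for both genes. The mean difference was 8.68 on the same scale (SE 0.25, n = 4 per group), or 7.37 when 5 was added. The ratio of Ang5 to Ang4 normalized counts in exposed mice 1 to 4 was 3.89, 5.13, 3.84 and 3.59. Both genes were picked for their high values in these mice, so the ratio does not show a link between them.

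For Rnase4 the groups overlapped. Its normalized counts were 453, 282, 372 and 282 in the PEA control mice, and 307, 321, 356 and 312 in the PEA-exposed mice, all within the range of the controls. The mean log2 difference was -0.07 (SE 0.16). Ang, the gene for the best known angiogenin of the family, was low in both groups, with 6.88, 7.02, 7.02 and 8.65 normalized counts in the controls and 4.78, 8.94, 6.99 and 18.7 in the exposed mice. These ranges overlapped.

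Ang2, a close paralog of Ang, was 0 in 3 control mice and 2.63 in the other, against 4.64, 9.4, 6.9 and 14.4 in the exposed mice. Its exposed values were all above the controls, but they came to between 0.13% and 0.258% of the Ang5 value of the same mouse. Ang6 was 0 in all mice except 1.03 in PEA control 3, although its RefSeq promoter is that of Ang5. Of the annotated angiogenin pseudogenes, looked at after their values were seen, Ang-ps2 and Ang-ps3 were listed at 0 in all 14 mice. Ang-ps1 was 0 in the controls and between 1.97 and 6.1 in the exposed mice, which is at most 0.171% of Ang5.

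Of the 6 members, 3 had the mean of at least 10 that the fit across genes required, namely Ang4, Ang5 and Rnase4, and the first pair passed only through the exposed mice. Of these 3, the groups did not overlap for 2. For comparison, the groups did not overlap for 9.32% of the 17322 genes tested, and 0.179% (31 genes, 25 higher and 6 lower) passed the threshold of 0.05 on the limma p after Benjamini-Hochberg adjustment. The members were chosen on this contrast, so these shares support nothing.

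**Figure D1:**
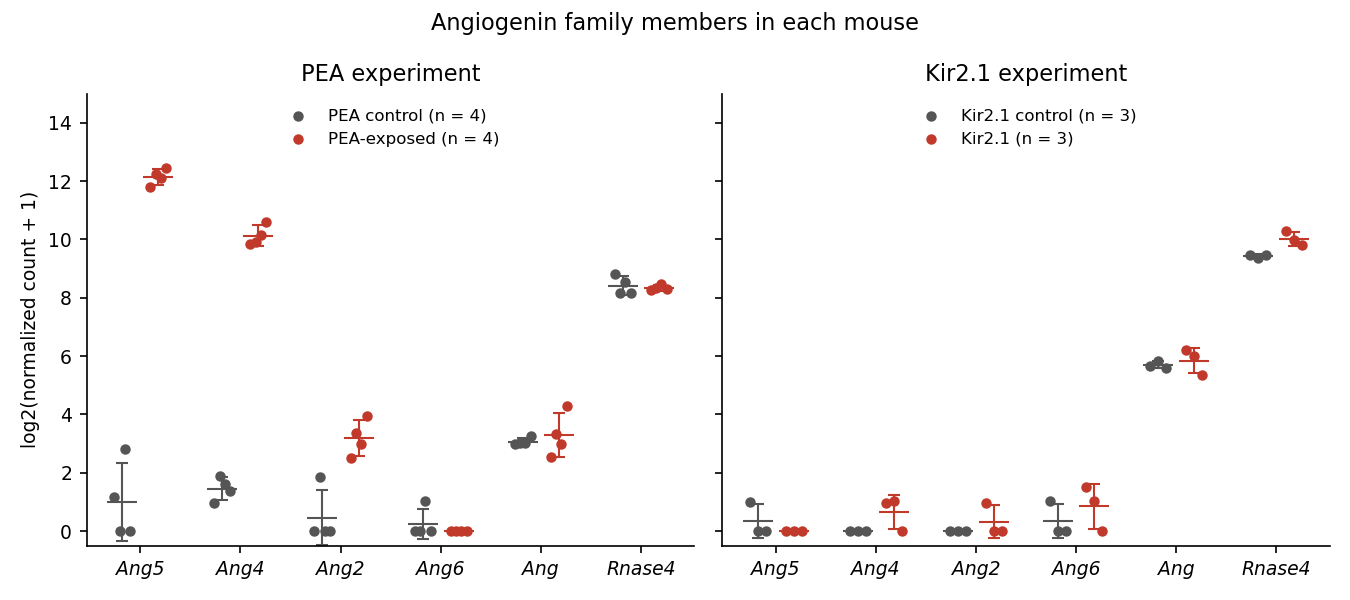
Values of the 6 members in each mouse of the PEA experiment (left) and the Kir2.1 experiment (right), as log2(normalized count + 1); points are mice, horizontal marks are group means and bars are SD. Ang5 and Ang4 stand above Rnase4 of the same mice in the 4 PEA-exposed mice, and near 0 in the other 10 mice.

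Levels of different genes were compared per kilobase of the longest annotated transcript (700 bases for Ang5, 709 for Ang4 and 1518 for Rnase4). Ang5 reached between 5084 and 7975 normalized counts per kilobase in the exposed mice, which placed it between rank 54 and rank 82 of 49011 symbols with a known length. Ang4 reached between 1291 and 2195 per kilobase (rank 224 to 354). Rnase4 held between 186 and 298 per kilobase over all 8 mice (rank 2373 to 3831). In exposed mice 1 to 4 the level of Ang5 per kilobase was 25.1, 33, 26.9 and 38.8 times that of Rnase4, and the level of Ang4 was 6.38, 6.35, 6.9 and 10.7 times that of Rnase4. The order Ang5, Ang4, Rnase4 was thus the same in all 4 exposed mice.

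The make-up of the family differed accordingly between the groups. In the PEA control mice Rnase4 made up between 92.4% and 97% of the summed level of the members per kilobase, and Ang4 with Ang5 between 0.999% and 4.32%. In the exposed mice Ang4 with Ang5 made up between 96.8% and 97.7%. A share within a mouse does not depend on the scaling between mice. The summed level of the family lay between 196 and 307 normalized counts per kilobase in the controls and between 6587 and 10409 in the exposed mice.

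**Figure D2:**
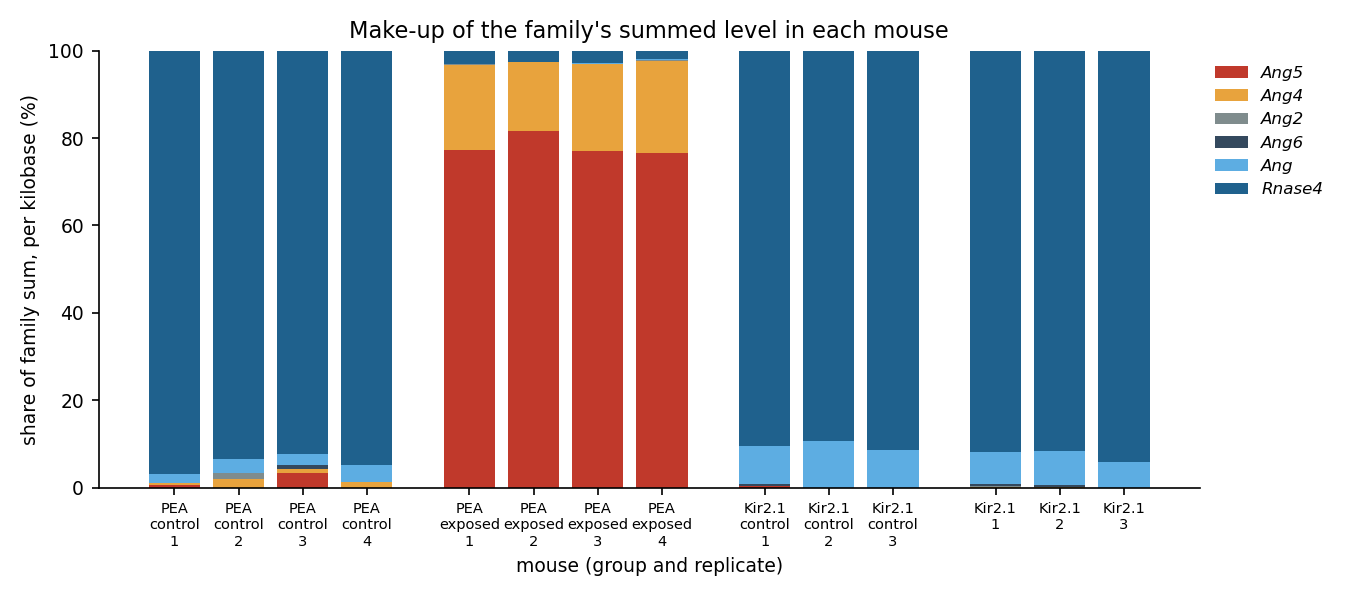
Share of each member in the family's summed normalized counts per kilobase of transcript, in percent, with 1 bar for each of the 14 mice. Ang5 and Ang4 fill the bars of the 4 PEA-exposed mice, and Rnase4 fills those of the other 10 mice.

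Because near-identical genes can exchange reads, the transcripts of the members were compared with each other. The longest transcripts of Ang4 and Ang5 were 88.9% identical over 696 aligned columns, those of Ang5 and Ang6 89.6% over 444 columns, and those of Ang and Ang2 88% over 902 columns, whereas Rnase4 matched the angiogenins only over short stretches (61.2% of 214 columns with Ang). At the 150 bp read length of the PEA libraries, no window of a member transcript was found unchanged in another annotated gene, so exact matches do not allow reads of Ang5 to be counted for Ang4 or the reverse. At the 40 bp read length of the Kir2.1 libraries, 9.08% of the Ang5 windows, 7.61% of the Ang4 windows and 12.8% of the Ang windows occurred in another gene. For Ang, most of these were shared with Rnase4 (77 of 1055 windows) or Ang2 (65 windows). Of the Rnase4 windows, 4.46% occurred in Ang, and Rnase4 was far more abundant (means of 691 and 51.2 in the Kir2.1 controls). The value of Ang in the Kir2.1 experiment can therefore be more uncertain than the share of its own windows.

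The position of the members was not used to choose them, so the genes around them were tested. Within 1 Mb of any member, 72 other genes were tested in the PEA experiment, of which 0 rose and 1 fell (limma, Benjamini-Hochberg adjustment over all genes). An unadjusted p under 0.05 was found for 13 of the 72, against 2593 of all 17322 genes tested. The gene that fell, Gm8113, a predicted protein-coding gene, lies 30.7 kb before Ang5. It had 350, 635, 472 and 826 normalized counts in the PEA control mice and 0, 0.868, 4.62 and 3.52 in the exposed mice (log2 difference -7.69, SE 0.52, adjusted p = 0.000125). Exposed mice were thus near 0 for Gm8113 and high for Ang5, and control mice the reverse. The sample records name the same strain for both PEA groups, but the study's methods name another for PEA exposure. Whether exposed and control pups had the same parents is not stated. A difference in genetic background and the exposure therefore cannot be told apart. This holds for Ang5 and the genes around it, and equally for Ang4 and every other gene compared between the PEA groups. All 6 mice of the Kir2.1 experiment, where Ang5 was at or near 0, had between 413 and 573 normalized counts of Gm8113.

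Some other genes of the same stretch had separate ranges in the PEA groups but did not pass the threshold, and they are named here after their values were seen. The lincRNA gene Gm49087, 23.5 kb beyond Ang5, ranged from 20.7 to 109 in the controls and from 1.72 to 8.56 in the exposed mice (adjusted p = 0.0568 by limma). Gm7324, 253 kb before Ang5, was 0, 0, 0 and 7.33 in the controls and 54, 12.3, 37.2 and 45.5 in the exposed mice (adjusted p = 0.068). Ear10, an eosinophil-associated ribonuclease gene of the cluster, was too low to be tested, with 0 to 2.01 in the controls and 2.05 to 5.27 in the exposed mice. In all, 7 of the 11 genes tested near Ang5 had an unadjusted p under 0.05, against 2593 of the 17322 genes tested in the experiment. Leaving out 1 mouse at a time gave between 1 and 3 called neighbors, with Gm8113 among them in all 8 fits. Gm49087 joined without PEA control 2, and Gm7324 joined without PEA control 4. Without the latter mouse Rpph1, the RNA of RNase P, which lies 291 kb before Rnase4, was called as well (adjusted p = 0.205 by limma with all mice), and it too is named after its values were seen. In the stretch around Ang5, every exposed mouse was above every control for 1 tested gene and below for 4, against 9.32% without overlap among all genes tested.

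Around Ang4, 39 genes were tested and 0 were called (4 with an unadjusted p under 0.05 by limma). The nearest tested genes were the vomeronasal receptor genes Vmn2r88 and Vmn2r89 on one side (adjusted p = 0.523 and 0.535), and Mettl17, a mitochondrial ribosome assembly factor, and Slc39a2, a zinc transporter, on the other (adjusted p = 0.21 and 0.204). Mettl17 ranged from 154 to 213 in the controls and from 221 to 307 in the exposed mice. Around Rnase4 and Ang, 46 genes were tested and 0 were called. The nearest were Gm49342 and Olfr750 before the gene and Rnase6 and 1810028F09Rik after it, with log2 differences from -0.62 to 0.29 and adjusted p from 0.5 to 0.836. Ang2 shares most of these neighbors, and the 44 genes tested around it, Rnase1 among the nearest, held 0 calls. With all mice in the fit, the called neighbor was thus found around Ang5 and Ang6 and not around the other members.

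**Figure D3:**
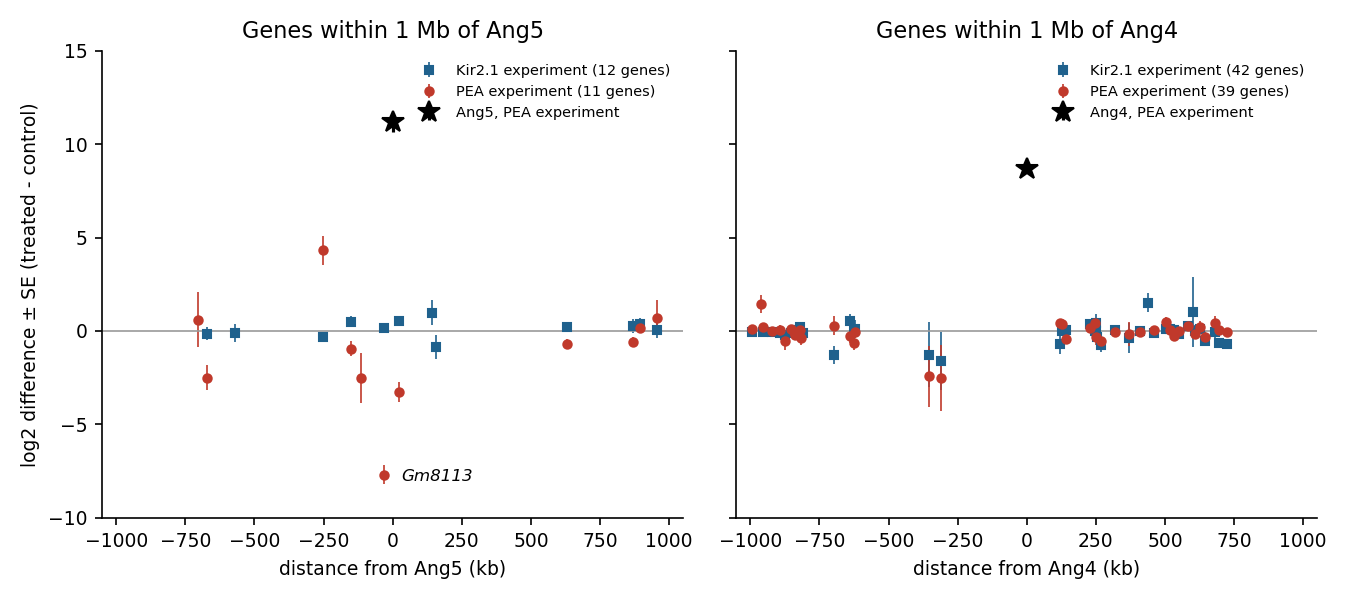
Log2 difference (treated minus control, bars SE) of every tested gene within 1 Mb of Ang5 (left) and Ang4 (right), against its distance in kb; red circles are the PEA experiment, blue squares the Kir2.1 experiment and the black star the member itself in the PEA experiment. Gm8113 lies at -7.69 close to Ang5, which lies at 11.16, and around Ang4 the lowest points are 2 vomeronasal receptor genes at -2.43 and -2.52 in the PEA experiment, with wide bars.

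Cell type markers were examined beside these values. Of the intestinal Paneth cell markers, Defa24 was at 0 in all mice, and the 3 markers summed to between 4.28 and 11.5 in the PEA controls and between 4.67 and 10.3 in the exposed mice, with Lyz1 between 4.28 and 10.4 and between 4.67 and 9.34. Among 5 markers of Bowman glands and other secretory cells, Muc5ac, a gel-forming mucin of goblet cells, was higher in exposed mice. It had 601, 412, 559 and 681 normalized counts in the controls and 2268, 2464, 2059 and 1050 in the exposed mice (log2 difference 1.75, SE 0.26, adjusted p = 0.0284 by limma). This call rested on most of the mice, since the adjusted p ranged from 0.00215 to 0.116 with 1 mouse left out and stayed under 0.05 only without PEA control 4 or without PEA-exposed mouse 4. In the Kir2.1 experiment Muc5ac ranged from 383 to 5441 in the controls and from 179 to 8584 in the Kir2.1 mice. The other markers of the list are named after their values were seen, and none was called in the PEA experiment. There Aqp5 (log2 difference 0.67) and Muc5b (0.65) were higher in exposed mice and Sox9 lower (-0.31), with Scgb1a1 at 0. The groups overlapped for Muc5b and Sox9. The 5 markers summed to between 2123 and 4884 in the PEA controls and to between 4016 and 6173 in the exposed mice. The 3 horizontal basal cell markers summed to between 698 and 845 in the controls and to between 922 and 1103 in the exposed mice, with 0 of 3 called. Their log2 differences, named after the values were seen, were 0.63 for Krt5, 0.62 for Krt14 and 0.00 for Trp63. Markers of mature OSNs summed to between 26411 and 29451 and between 24539 and 30711, and those of neutrophils to between 142 and 271 and between 211 and 285. The part of any of these cells in the Ang4 and Ang5 values was not tested.

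Vomeronasal receptor genes set the mice of the PEA experiment apart from each other in a way that crossed the groups. Their 341 symbols summed to between 2810 and 9833 in PEA controls 1 to 3 and to 7179 in PEA-exposed mouse 1, and to between 550 and 628 in PEA control 4 and PEA-exposed mice 2 to 4. Among the latter 4 mice Ang5 was 0 in the control and 4885, 4412 and 5582 in the exposed mice, and Ang4 was 1.61 against 951, 1148 and 1556. The log2 difference of Ang5 among these mice was 12.27.

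The Kir2.1 experiment shares no mice with the PEA experiment. The low values of Ang4 and Ang5 in it were part of their choice, so only the other members were tested. The transgene was visible in the libraries, as Kcnj2, which encodes Kir2.1, lay between 986 and 1274 normalized counts in the controls and higher in all Kir2.1 mice (log2 difference 4.18, SE 0.14, adjusted p = 0.000157 by limma). No member was called among the 70 genes (0.353% of 19807 tested, 15 higher and 55 lower) with an adjusted p under 0.05. Of the 6 members, 2 passed the filter, Rnase4 and Ang.

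Rnase4 had 710, 660 and 704 normalized counts in Kir2.1 controls 1 to 3, and 1241, 1007 and 888 in Kir2.1 mice 1 to 3. All Kir2.1 mice were above all controls, and the Kir2.1 mice were the more spread (1046 ± 180 against 691 ± 27.3, mean ± SD, n = 3 per group). The log2 difference of 0.58 (SE 0.13) did not pass the threshold by limma with Benjamini-Hochberg adjustment (adjusted p = 0.163, unadjusted p = 0.00252). An exact permutation test over these mice alone gave p = 0.1, two-sided, the smallest value that 3 against 3 allows. Groups that do not overlap are not rare here, as 16.3% of all genes tested showed this, and 1 of the 2 tested members did. With 1 mouse left out the difference stayed between 0.45 and 0.69 and the adjusted p between 0.121 and 0.439.

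The summed levels of some marker lists also had separate ranges in the Kir2.1 experiment. The 6 markers of mature OSNs summed to between 107972 and 120457 in the controls and to between 78619 and 89791 in the Kir2.1 mice, with 1 of 6, Omp, called at an adjusted p of 0.0466 by limma, which was between 0.0704 and 0.175 with any 1 mouse left out. The 3 erythroid markers summed to between 5947 and 10654 and between 11321 and 17281, with 0 of 3 called. Their part in the Rnase4 value was not tested, and in whole tissue a change in the number of cells and a change in RNA per cell cannot be told apart.

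Ang had 49.3, 56.5 and 47.7 normalized counts in the Kir2.1 controls and 72.2, 62.5 and 39.8 in the Kir2.1 mice. The Kir2.1 mice spanned the controls, and the log2 difference was 0.14 (SE 0.27, adjusted p = 0.911 by limma). Without Kir2.1 mouse 1 it was -0.03. Although Rnase4 and Ang share a promoter, their ratio was not constant. The level of Rnase4 per kilobase was 10.4, 8.41 and 10.6 times that of Ang in the Kir2.1 controls, 12.4, 11.6 and 16.1 times in the Kir2.1 mice, and between 12 and 47.4 times in the PEA experiment. These ratios were not tested, and the 2 experiments differ in library preparation and were normalized separately. In the Kir2.1 experiment they also depend on how reads that match both genes were split.

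**Figure D4:**
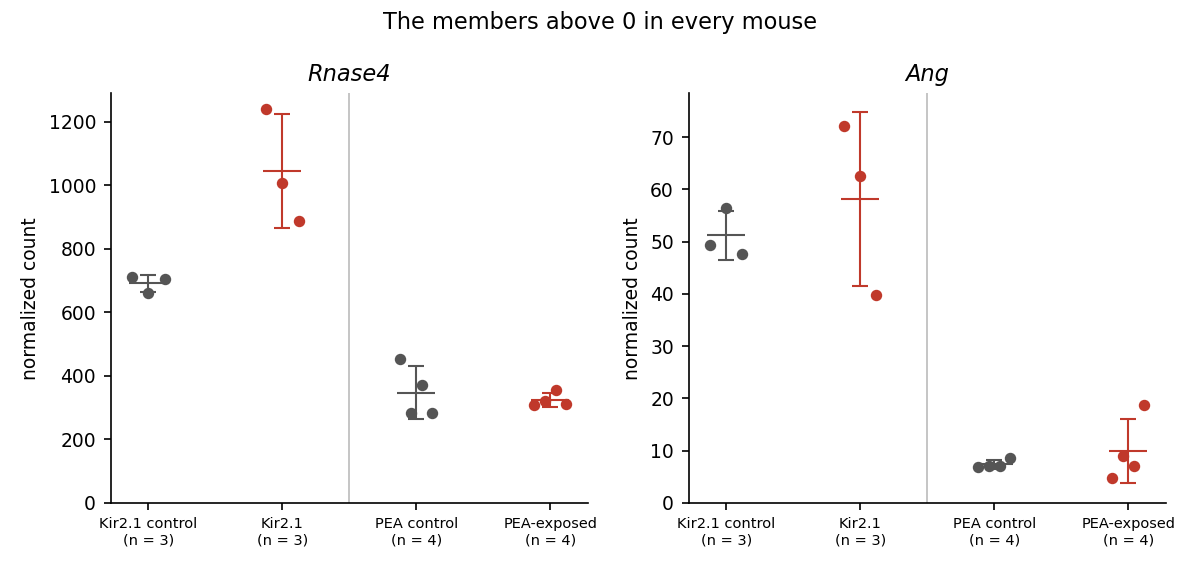
Normalized counts of Rnase4 (left) and Ang (right) in each mouse, with the mean and SD of each group; the gray line separates the 2 experiments, which were normalized separately. Rnase4 of the 3 Kir2.1 mice lies between 888 and 1241, above the 660 to 710 of their controls, whereas Ang overlaps between the groups of both experiments.

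The remaining members were at the limit of detection in the Kir2.1 experiment. Ang4 was 0 in the 3 controls and 0.961, 1.02 and 0 in the Kir2.1 mice. Ang5 was 1.01 in control 1 and 0 in the other 5 mice. Ang6 was 1.02, 0 and 0 in the controls and 1.88, 1.03 and 0 in the Kir2.1 mice (exact permutation test, p = 0.4, two-sided), and Ang2 was above 0 only in Kir2.1 mouse 1, at 0.959 (exact p = 1). Ang4 with Ang5 made up between 0% and 0.133% of the family's summed normalized counts in these 6 mice, with mean shares of 0.0443% in the controls and 0.056% in the Kir2.1 mice. With values from 0 to 1.88, 3 mice per group and an unknown read depth, small differences at such low levels could not be detected. Of the 79 genes tested within 1 Mb of any member in this experiment, 0 were called. An unadjusted p under 0.05 by limma was found for 11 of them, against 2205 of all 19807 genes tested. In the 48 around Rnase4, every Kir2.1 mouse was above every control for 1 gene and below for 9. Over all 19807 genes tested the groups did not overlap for 16.3%, with 1438 genes above and 1791 below. Odorant receptor genes were among those below around Rnase4. Among the nearest of the 48, Olfr750, an odorant receptor gene, ranged from 61.3 to 81.4 in the controls and from 11.7 to 50.3 in the Kir2.1 mice (log2 difference -1.29, SE 0.50, adjusted p = 0.405 by limma).

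Other genes of the RNase A superfamily were low in both experiments. Of 14 such genes in the tables, 3 were tested per experiment and 0 were called, with 0 at an unadjusted p under 0.05 by limma. Over all genes tested, such a p was found for 2593 of 17322 in the PEA and 2205 of 19807 in the Kir2.1 experiment. The counts of the lists below stand beside these shares. The 2 most abundant were Rnase1, the pancreatic-type ribonuclease (65.6 in PEA controls and 61.9 in exposed mice, means of 4, adjusted p = 0.944), and Rnase6, an antimicrobial ribonuclease of macrophages and urinary tract (20.3 and 18, adjusted p = 0.779). In the Kir2.1 experiment their means were 65.4 and 78.9 for Rnase1 and 17.1 and 25 for Rnase6, with adjusted p of 0.962 and 0.652. Ear1, which lies in the stretch around Ang5, is named after its values were seen. It was 0, 42.8, 1.01 and 88.4 in PEA controls 1 to 4 and at most 1.06 in the exposed mice (adjusted p = 0.408 by limma).

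Genes that act with angiogenin were measured in good supply but did not pass the test. Of 9 partners and tRNA-protecting genes, 0 were called in either experiment (unadjusted p under 0.05 by limma for 2 genes after PEA and for 1 with Kir2.1), and the median log2 difference was 0.11 in the PEA and 0.05 in the Kir2.1 experiment, against -0.02 and 0.01 over all genes tested. The most abundant were Plxnb2, a receptor for angiogenin (2725 and 3112 in PEA controls and exposed mice, adjusted p = 0.631), and Ybx1, an RNA-binding protein that interacts with tRNA fragments (2889 and 2666, adjusted p = 0.744). In the Kir2.1 experiment Plxnb2 had means of 35354 and 36650 and Ybx1 of 16967 and 17024. Rnh1, the inhibitor of these ribonucleases, was looked at after its values were seen. It averaged 900 in PEA controls and 1178 in exposed mice, all exposed mice being above all controls, but its adjusted p was 0.141 (log2 difference 0.39, SE 0.10).

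Among 9 angiogenic and endothelial genes, 0 were called in either experiment, with 1 at an unadjusted p under 0.05 in each. Their median log2 difference was 0.00 in the PEA and 0.18 in the Kir2.1 experiment. In the PEA experiment the most abundant were Angpt1, a ligand of the endothelial receptor Tek (244 and 247, adjusted p = 0.99 by limma), and Pecam1, an adhesion protein of endothelium (254 and 228, adjusted p = 0.685). In the Kir2.1 experiment they were Vegfa, the main vascular growth factor (675 and 752, adjusted p = 0.804), and the endothelial cadherin Cdh5 (311 and 441, adjusted p = 0.722).

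The secreted antimicrobial proteins of the epithelium also held 0 calls, with 8 genes tested after PEA and 10 with Kir2.1 (unadjusted p under 0.05 by limma for 3 and 1 of them, medians 0.14 and 0.35). Bpifa1, an airway surface protein, averaged 65217 in PEA controls and 50607 in exposed mice (adjusted p = 0.482) and 176127 and 227457 in the Kir2.1 experiment (adjusted p = 0.574). Ltf, which encodes the iron-binding lactoferrin, averaged 11264 and 12733 in the PEA experiment (adjusted p = 0.799). Reg3g, a secreted lectin, averaged 13780 and 18702 in the Kir2.1 experiment (adjusted p = 0.733). The 10 ribonucleases of other families held 0 calls in both experiments (2 and 1 at an unadjusted p under 0.05, medians 0.07 and 0.02). Dicer1, which processes microRNA precursors, averaged 2326 and 2121 in the PEA experiment (adjusted p = 0.628) and 5126 and 4921 in the Kir2.1 experiment (adjusted p = 0.906). The nuclear microRNA processor Drosha averaged 4423 and 4297 in the latter (adjusted p = 0.906), and the secreted ribonuclease Rnaset2b averaged 991 and 799 in the former (adjusted p = 0.431).

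**Figure D5:**
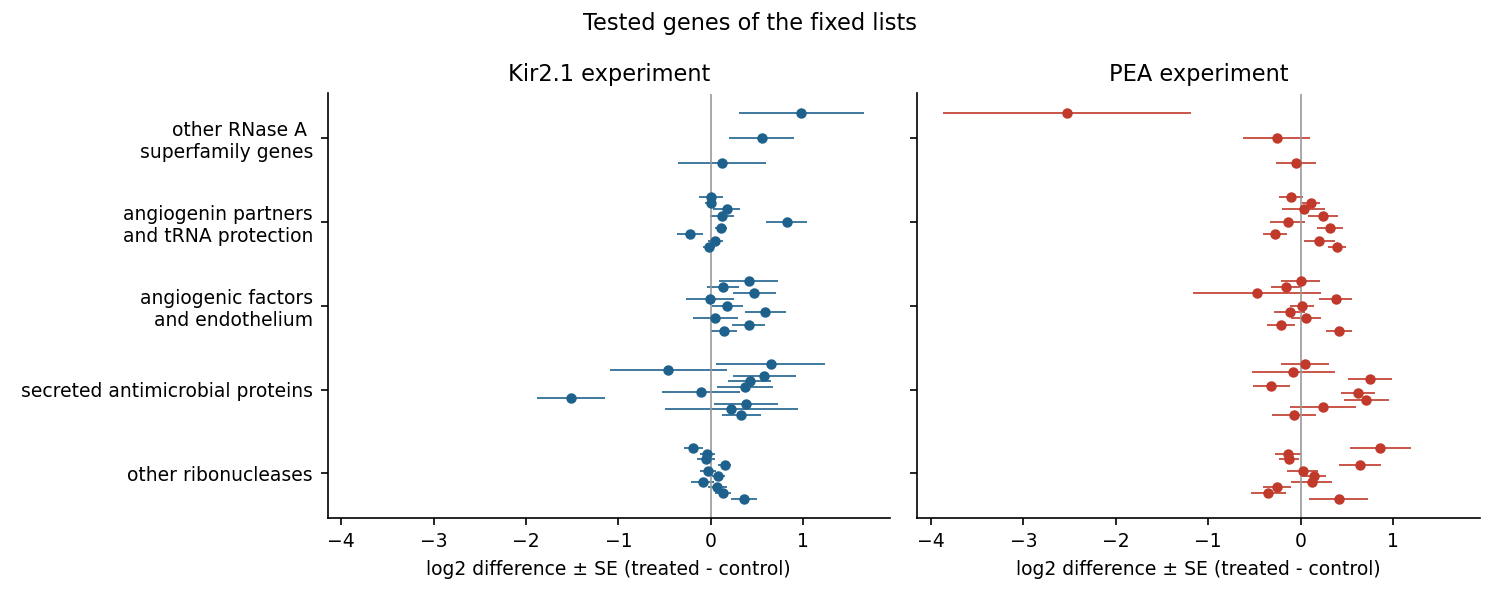
Log2 difference (treated minus control, bars SE) of each tested gene in 5 lists of related genes, in the Kir2.1 experiment (left) and the PEA experiment (right). No point passed the threshold after adjustment, and Ear1 at -2.53 in the PEA experiment has the widest bar of its panel.

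Genes with the pattern most like a member were found by scaling each gene's log2 values from 0 in its lowest to 1 in its highest mouse and taking the mean absolute difference from the member over the 8 PEA mice, with 17321 other genes compared. This describes 8 mice whose groups define the pattern and is given with no test. The 5 most like Ang4 were Rps26-ps1 (0.050), Ang5 (0.062), Cenpx (0.069), Tmem181c-ps (0.077) and Ky (0.078). The 5 most like Ang5 were Gm6563 (0.060), Ang4 (0.062), Utp25 (0.070), Olfr888 (0.076) and Ky (0.076). Each of the pair was the second most like gene of the other, and the most like (0.037) when 5 was added in place of 1. Both were picked for this pattern, so their likeness to each other supports nothing. Of the rest, the pseudogenes Rps26-ps1 and Gm6563 were also near 0 in the controls (0 to 0.896 and 0 to 2.38 normalized counts) and present in every exposed mouse (45.7 to 84.4 and 74.1 to 107). In the Kir2.1 experiment Gm6563 was 0 in all mice. Rps26-ps1, by contrast, ranged there from 4889 to 5984 in the controls and from 5747 to 6071 in the Kir2.1 mice. Ky, a muscle protein gene, was low rather than absent in the PEA controls, with 20.3 to 30.8 against 88.7 to 133 in the exposed mice. None of these genes lies on chromosome 14 except Ang4 and Ang5, apart from Utp25, which had no position in the annotation used.

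The pattern of Rnase4 over the PEA mice was most like that of Agr2, a protein disulfide isomerase of mucus-secreting cells (0.047), Snrnp70 (0.052), Bcap31 (0.065), Atg3 (0.066) and Sema3b (0.067). All of these overlapped between the groups, as Rnase4 did. Agr2, for example, ranged from 1168 to 1868 in the controls and from 1288 to 1430 in the exposed mice. Over the 6 Kir2.1 mice the genes most like Rnase4 were Cav1, which encodes the coat protein of caveolae (0.027), Gm16150 (0.036), Gm12164 (0.042), Lrrc71 (0.044) and Ppp1r14d (0.045). Cav1 ranged from 261 to 292 in the controls and from 360 to 536 in the Kir2.1 mice. The genes most like Rnase4 in one experiment were not those of the other.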

How the data were processed

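RNA-seq of whole olfactory epithelium from individual P5 mice was re-analyzed. According to the methods of the study and the submitters' processing notes, the authors ran Salmon 1.3.0, brought its transcript estimates to genes through tximport and scaled them in DESeq2 1.30.0. What was deposited is thus a signal on a normalized scale (normalized counts), not whole reads, and whole reads could not be recovered, since Salmon splits reads and tximport scales by length. Sums per mouse (33049111 to 34198478 in the Kir2.1 and 11476120 to 12467331 in the PEA experiment) follow normalization, so read depth is unknown. Poly-A selection and 40 bp reads were used for the Kir2.1 mice, and stranded libraries without ribosomal RNA with 150 bp reads for the PEA mice. Salmon is described with a setting for reverse-stranded reads also for the unstranded Kir2.1 libraries.

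Genes with a mean of at least 10 were tested within each experiment with limma 3.58.1 in R 4.3.3 (log2(normalized count + 1), mean-variance trend, Benjamini-Hochberg adjustment over all genes, two-sided, threshold 0.05), after a check on simulated data. Differences on this scale understate changes of low genes. Ang2 and Ang6, under the filter, were tested by exact permutation in the Kir2.1 experiment. The permutation tests planned there for Ang4, Ang5 and their share of the family are not given, since their low values were part of the choice. Python 3.11.15 and Biopython 1.88 were used otherwise. The members, lists and tests were chosen with earlier results of these data known. Named were all members, in each list the called genes or else the 2 most abundant, called or nearest neighbors, and the 5 genes most like Ang4, Ang5 and Rnase4. Any other gene named is marked as chosen after its values were seen. Positions came from GENCODE vM21, which held 95.9% of the symbols, and promoters from RefSeq. Protein sequences were not used here. Labels give replicate numbers only, so p-values measure the spread between these mice and not between cages or litters. Numbers were not used to pair mice in the main fits, which thus left out the litters shared by the Kir2.1 groups. Deviations of same-numbered mice correlated at -0.06 to 0.16 (Kir2.1) and -0.05 to 0.13 (PEA), which cannot exclude pairing. Sex was not in the fits. Xist, a marker of females named after its values were seen, matched by number in the Kir2.1 experiment. It was 13216, 11955 and 3.02 in the controls and 14299, 13033 and 22.1 in the Kir2.1 mice. In the PEA experiment Xist was 13.3, 14.4, 14593 and 24975 in the controls and 16604, 12509, 8.14 and 14869 in the exposed mice. Alternatives were a pseudocount of 0.5 or 5, leaving the filter out or raising it to 50, fitting limma with no trend, quantile normalization, the replicate block, leaving out each mouse, a scale per kilobase and the mice low in vomeronasal transcripts.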

Additional observations from a re-analysis of the deposited data

Results flagged for a closer look

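Of 11 groups of 4 mice with values above 0 for a member, 3 held a mouse that stood apart from the other 3 by Dixon's test at the 95% level. Chance flags about 1 in 20 groups of measured values, but a single value beside 3 zeros is always flagged, which applies to 2 of the 3. Ang was 8.65 in PEA control 4, against 6.88 to 7.02 in the other controls. Ang2 was 2.63 in PEA control 2 and Ang6 was 1.03 in PEA control 3, each against 0 in the other controls. All 3 are values of members below the filter on low values, and none belongs to Ang4, Ang5 or Rnase4.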

How the results depend on the processing

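Settings were changed 1 at a time. In the Kir2.1 experiment the number of genes called (70) was 20 by limma without a trend, 9 with the replicate block and 23 to 44 with 1 mouse left out, and 8 of the 9 were among the 70. In the PEA experiment the number called (31) was 52 without a filter and 19 to 43 with 1 mouse left out. The called neighbors of the members in the PEA experiment (1) were 3 without a filter, 2 with the replicate block and 1 to 3 with 1 mouse left out, with Gm8113 among them each time. The PEA difference of Ang5 (11.16) was 9.47 with a pseudocount of 5 and 12.27 in the mice low in vomeronasal transcripts, and 10.83 to 11.76 with 1 mouse left out. That of Ang4 (8.68) was 7.37 with a pseudocount of 5 and 9.08 after quantile normalization, and 8.51 to 8.82 with 1 mouse left out. That of Rnase4 (-0.07) was 0.22 in the mice low in vomeronasal transcripts and -0.16 to 0.06 with 1 mouse left out. For Ang in the Kir2.1 experiment, leaving out 1 mouse gave -0.03 to 0.39, the negative value without Kir2.1 mouse 1. The Kir2.1 difference in the share of Ang4 and Ang5 (0.0116 percentage points) was 0.023 per kilobase and -0.0107 to 0.056 with 1 mouse left out. Where a value changed, the cause was not tested. With the replicate block the adjusted p of Rnase4 in the Kir2.1 experiment was 0.226 by limma and the call of Muc5ac in the PEA experiment was lost (adjusted p = 0.122), as it was without a trend (0.0895). The call of Omp in the Kir2.1 experiment was lost with the replicate block (0.0799), a pseudocount of 5 (0.0531), no filter (0.0525) and no trend (0.148). Rnase4 passed the threshold under no alternative tried. The called genes in the 5 lists stayed at 0 under every alternative in both experiments. With a pseudocount of 5, 4 of the 5 genes most like Ang4, 3 of 5 for Ang5 and 5 of 5 for Rnase4 were the same in the PEA experiment, and 3 of 5 for Rnase4 in the Kir2.1 experiment. Unknown depth and 3 or 4 mice per group limit what can be said of members near 0.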
